A study of Drosophila melanogaster with 3 samples.

Results

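Dense clusters of binding sites of the Drosophila melanogaster protein Pipsqueak (Psq), called domains here, were described in whole larvae. A domain was a chain of 6 or more peak summits on one chromosome arm in which each summit lay 2000 bp or less from the next. The members were thus selected on the positions of called summits alone, and calls depend on the same signal as the scores. The rule was applied to the authors' optimal peak list on genome build dm6, and the summit was the position that the list marks within each peak. It gave 239 domains, which held 2014 of the 10105 nuclear peaks (19.9%) in a list of 10138 peaks. A further 5314 nuclear peaks lay in chains of 2 to 5 summits, 2777 were isolated, and the other 33 peaks were mitochondrial. The data came from 3 biological replicates of chromatin immunoprecipitation with sequencing (ChIP-seq) on whole larvae of mixed sex, collected in the wandering stage of the third instar. All larvae came from 1 transgenic line, strain psq-GFP, which expresses Psq with green fluorescent protein (eGFP) at its C-terminus, and the antibody recognised the GFP tag. All replicates formed a single group, so domains were compared with the remaining peaks and not with another condition.

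Psq carries a BTB domain, through which such proteins associate with one another, and a repeated DNA-binding motif of the Psq type that recognises GA repeats. It is known to work together with GAGA factor, the product of Trl, and with Polycomb group proteins at regulatory DNA, and it is required for patterning during oogenesis. Late in larval life the steroid hormone ecdysone starts metamorphosis, while imaginal discs grow and larval tissues prepare for their removal. Whole larvae mix all of these tissues, so summits of one domain bound in the same cells and summits bound in different cells cannot be told apart.

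The DNA under the highest summits of large domains shows how GA repeats occur there. The highest summit of a domain is the one with the highest score in the optimal list. The first set holds the highest summits of the 6 domains with the most summits among those on arms 2L, 3L, 3R and X whose 101 bases around the highest summit touch no annotated exon. The capitals mark GAGAG or its complement CTCTC, the GA-repeat word examined throughout. All stretches run 5′ to 3′ on the forward strand of dm6, from the NCBI RefSeq sequence of that assembly, with 50 bases on each side of the summit.
tara, 3R:16242603-16242703: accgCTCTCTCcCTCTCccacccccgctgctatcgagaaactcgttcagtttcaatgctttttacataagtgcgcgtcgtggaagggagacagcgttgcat
vri, 2L:5292390-5292490: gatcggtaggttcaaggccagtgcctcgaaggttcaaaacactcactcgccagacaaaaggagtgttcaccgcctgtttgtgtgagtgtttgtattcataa
brat, 2L:19163639-19163739: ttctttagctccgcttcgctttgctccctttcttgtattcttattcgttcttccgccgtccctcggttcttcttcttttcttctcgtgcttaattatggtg
Tlk, X:3744620-3744720: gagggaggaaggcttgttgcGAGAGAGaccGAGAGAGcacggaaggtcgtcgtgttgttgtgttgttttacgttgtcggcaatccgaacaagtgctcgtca
Mur2B, X:1616988-1617088: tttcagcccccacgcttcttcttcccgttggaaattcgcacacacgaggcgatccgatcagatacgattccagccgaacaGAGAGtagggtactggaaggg
CG1677, X:7302123-7302223: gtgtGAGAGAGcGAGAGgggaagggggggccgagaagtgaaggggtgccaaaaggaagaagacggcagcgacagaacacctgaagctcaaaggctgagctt
The stretch named for tara lies 163 bp from a transcription start site (TSS) of that gene, and the others lie in introns. The summits for brat, Tlk, Mur2B and CG1677 were also the highest of their domains in all 3 replicates, that for vri in 1 and that for tara in none. Of these 6 stretches, the ones named for tara, Tlk, Mur2B and CG1677 hold the word 3, 4, 1 and 3 times, and those named for vri and brat do not hold it. So not every one of these summits has a GAGAG within 50 bases.

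The second set holds the windows with the most GAGAG within 50 bp of a domain summit among those outside exons, to show the far end of the range. Both lie in introns, of bif and Tlk.
bif, X:11686328-11686428: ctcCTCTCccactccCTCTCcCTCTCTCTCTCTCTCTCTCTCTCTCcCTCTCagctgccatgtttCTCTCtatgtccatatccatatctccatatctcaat
Tlk, X:3740821-3740921: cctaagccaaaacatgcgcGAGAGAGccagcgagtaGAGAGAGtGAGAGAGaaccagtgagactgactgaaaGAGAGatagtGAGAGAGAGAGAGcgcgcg
The bif stretch holds the word 15 times, overlapping copies included, and the Tlk stretch 12 times. Their scores relative to the replicate's median, explained next, were 4.26 ± 0.211 in bif and 1.34 ± 0.772 in Tlk (SD, n = 3), so the stretch with 12 copies was well below the CG1677 summit with 3 copies, at 10.2 ± 1.72 (SD, n = 3).

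Each deposited peak carries a score from the authors, which was used only within its own list. In every replicate the 10105 highest-scoring nuclear peaks were taken as strong peaks, as many as the optimal list has, and a relative score is a score divided by the median over those strong peaks. The level of a domain is the sum of the relative scores of all strong summits inside it, in each replicate. Depth per sample is unknown, because the lists hold no read counts. Scores, counts and spacing chose the domains or come from the same lists, so they are given as description without a test.

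The size of the domains ran from 6 to 22 summits, with a median of 7. There were 78 domains of 6 summits, 43 of 7, 37 of 8, 23 of 9 and 58 of 10 or more, and these last held 742 peaks. From first to last summit the domains spanned 2595 to 16767 bp with a median of 5616 bp, and together they covered 1.48 Mb, which is 1.1% of the arms. Their density ran from 0.873 to 2.5 summits per kb with a median of 1.4. Neighbouring summits inside domains were a median of 721 bp apart over 1775 gaps, against 723.5 bp in chains of 2 to 5. Gaps in domains ran from 199 to 1984 bp, with quartiles at 519 and 1088 bp. The rule set the upper limit of the gaps in both.

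The edges of domains were not sharp in every case. Just inside the rule, 175 of the 1775 inner gaps were 1500 bp or more, the largest being 1984 bp. Just outside it, 62 of 478 gaps at domain edges were 2500 bp or less, the smallest being 2025 bp. By size, 78 chains had 6 summits and were domains, while 134 had 5 and were not. The 468 peaks in chains of 6 had 32.9% in promoters and 50.2% with GAGAG within 100 bp of the summit, and the 670 peaks in chains of 5 had 37.9% in promoters and 50.6% with GAGAG. Other measures differed more across this limit: 69.9% of peaks in chains of 6 were strong in all 3 replicates, against 63.7% in chains of 5, and 53.8% were intronic, against 46.6%. The median relative score was 1.32 ± 0.0308 in chains of 6 and 1.17 ± 0.0553 in chains of 5 (SD, n = 3).

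Domains lay on all large arms. Arm 2L held 47, 2R 43, 3L 53, 3R 47 and X 49, and chromosome 4, with 29 optimal peaks, held none. The share of an arm's nuclear peaks that lay in domains ran from 17.4% on 3R to 23.2% on X. Domains were usually far apart, with a median distance of 242 kb to the next, but 28 neighbouring pairs were closer than 10 kb and 16 of them closer than 5 kb. In the authors' more permissive list, called on all replicates together, domain spans held 2535 peaks, 521 more than the 2014 optimal domain peaks. Peaks were not matched between these lists, so the number shared was not examined. Both lists come from the same replicates, so much of this count was set by the rule.

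**Figure D1:**
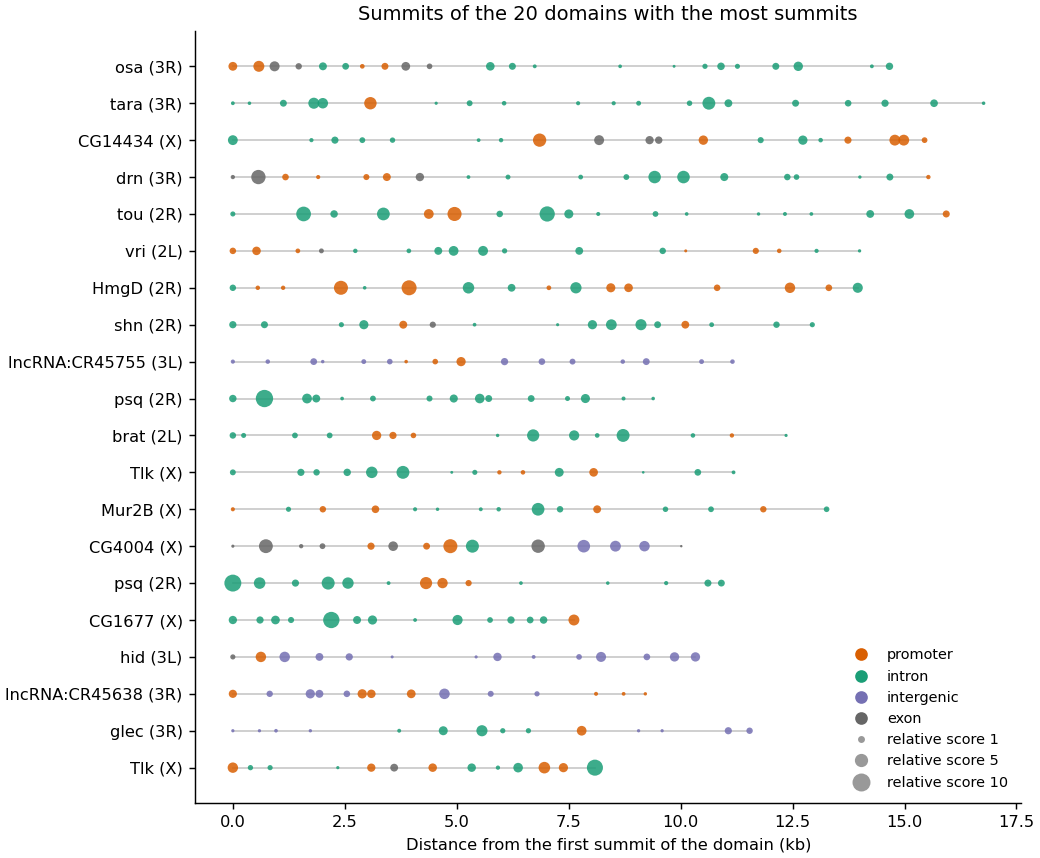
Summits of the 20 domains with the most summits, each row a domain with its chromosome arm, against the distance in kb from its first summit. Dot area grows with the mean relative score over the replicates and colour gives the class of the summit; the osa row at the top holds 22 summits, 14 of them in introns, and both psq rows and the CG1677 row hold 1 dot above 10 each.

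The domain with the most summits lay in osa, which encodes a subunit of the SWI/SNF-type Brahma chromatin remodelling complex and belongs to the trithorax group. It spanned 3R:17700376-17715040 with 22 summits, all within osa, of which 14 were intronic and 4 lay in promoters of long noncoding RNAs annotated inside the gene. The number of strong summits in that span was 19, 20 and 23 in replicates 1, 2 and 3, and the level was 38.1, 39.4 and 48.1. No summit dominated it. The highest, in the promoter of lncRNA:CR46036, had a relative score of 4.63 ± 0.446 (SD, n = 3) and made up 12.4% of the summed optimal score, the smallest such share among the 239 domains.

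The next domain by number of summits lay in tara, a trithorax-related regulator of the cell cycle, at 3R:16239581-16256347. It had 20 summits over the longest span of all, 16767 bp, with 19 summits in introns and 1 in a promoter. By optimal score the promoter summit was the highest, with relative scores of 6.53, 4.45 and 6.76, but in every replicate an intronic summit 7396 bp from the nearest TSS was above it, with 7.46, 4.6 and 7.01. Its level was 34.7, 34.5 and 46.9 in the replicates, so replicate 3 was the high one both here and at osa. A further domain of 12 summits lay in tara, and 1 of 6 summits that overlapped no protein-coding gene took its name from the nearest TSS, that of tara. Another domain of 14 summits, named for lncRNA:CR45638 at 3R:16205568-16214780, lay on the same stretch of 3R and overlapped no protein-coding gene. Its levels were 22.7, 25.8 and 20.7.

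The other large domains differed in class and level. The domain in tou, which encodes a chromatin protein, had 18 summits and levels of 48.6, 61.8 and 52.8 in the replicates. A domain over HmgD and HmgZ, neighbouring genes for HMG-box chromatin proteins, had 16 summits and levels of 54.5, 51.6 and 47.1. It differed from most large domains in having 10 of 16 summits in promoters, and its highest pair, at the HmgZ promoter, reached 8.65 ± 0.711 and 7.53 ± 0.852 (SD, n = 3). In shn, a zinc finger effector of the Dpp pathway, 13 of 16 summits were intronic and only 3 had GAGAG within 100 bp, with levels of 30.4, 34.7 and 32.0. In vri, a bZIP transcription factor of the circadian clock, 17 summits had levels of 22.3, 28.0 and 25.8.

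Some large domains lay mostly outside the gene they are named for. The domain named for hid, a proapoptotic gene, spanned 3L:18185072-18195403, and only 1 of its 14 summits lay within hid. Its highest summit was 57 bp from the hid TSS, and its levels of 31.2, 30.0 and 30.4 differed little between replicates. Of the 16 summits in the domain named for lncRNA:CR45755 at 3L:16172500-16183658, none lay in a protein-coding gene, with levels of 19.3, 21.8 and 21.5. A domain of 14 summits lay within CG1677 at X:7299974-7307591, but the TSS nearest to its highest summit, 5766 bp away, was that of brk, a repressor of Dpp target genes. Its levels were 38.8, 39.9 and 41.7.

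**Figure D2:**
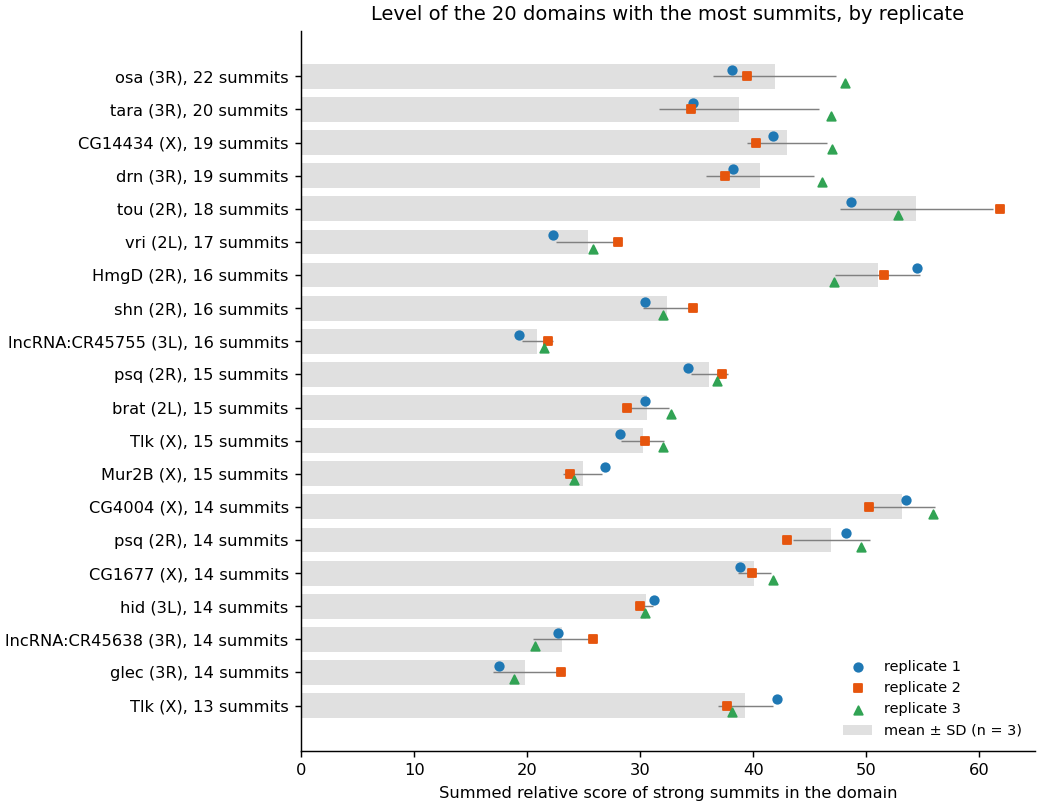
Level (summed relative score of strong summits) of the 20 domains with the most summits, with 1 point per replicate, the mean as a bar from 0 and the SD over 3 replicates as a line. The tou, CG4004 and HmgD domains average 54.4, 53.2 and 51.0, while the lncRNA:CR45755 and glec domains average 20.9 and 19.8.

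The number of summits and the level did not give the same order of domains. The level ran from 2.36 to 67.9 with a median of 14.3. Spearman's rho between number of summits and level was 0.63 over 239 domains, which share the same lists. The highest level belonged to a domain of 8 intronic summits in Smr, a corepressor of nuclear receptors, at X:12734068-12739932, with 63.0, 68.4 and 72.4 in the replicates. A pair of neighbouring summits there had relative scores of 23.6 ± 0.988 and 22.7 ± 1.3, and each of the other 6 was below 7 (SD, n = 3 for the pair). The domain named for CG4004, next on the X at X:12747259-12757274, had 14 summits and levels of 53.5, 50.2 and 55.9. A domain of 13 summits in E2f1, a transcription factor of S-phase genes, had levels of 12.2, 15.2 and 12.3. Its mean of 13.2 was slightly below the median of 14.3 over all domains, although most had fewer summits. The summits of that domain ranged from 0.42 ± 0.333 to 1.8 ± 0.573 (SD, n = 3), so it was broad without a high summit.

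The share taken by the highest peak showed the same variety. It had a median of 28.2% of a domain's summed optimal score and ran from the 12.4% at osa to 70.1% at the first psq domain. In Tlk, which encodes Tousled-like kinase, a domain of 13 summits at X:3772962-3781048 had its highest summit at 9.89 ± 1.14 and GAGAG near 12 of the 13. In InR, the insulin receptor, 6 intronic summits gave levels of 34.2, 29.6 and 24.6, more than the 13 at E2f1. A domain of 9 summits in Eip75B, an ecdysone-induced nuclear receptor, had 56.4% of its score in 1 intronic summit at 10 ± 1.69 (SD, n = 3).

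The psq gene itself named 4 domains with 45 summits, the most summits for any gene, a total that includes 4 summits of the first domain lying beside the gene body. They lay between 2R:10554289 and 2R:10605762 and had 8, 14, 8 and 15 summits in order along the arm. The first had levels of 63.8, 59.6 and 58.8, and its highest summit, in an intron 1076 bp from a psq TSS, had relative scores of 42.9, 41.4 and 39.2. The other 7 summits of that domain ran from 1.05 ± 0.471 to 7.24 ± 0.511 (SD, n = 3). The level averaged 46.9 ± 3.43 in the second domain, 18.3 ± 2.08 in the third and 36.1 ± 1.65 in the fourth (SD, n = 3). GAGAG was near 4 of 8, 5 of 14, 1 of 8 and 8 of 15 summits of the 4 domains. No control library was analysed, so binding at psq and extra copies of psq DNA in these transgenic flies cannot be told apart.

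In Trl, the gene of GAGA factor, a domain of 8 summits covered 3L:14755378-14760170. All 8 summits lay in the gene, 6 of them in introns and 2 in promoters, and 7 had GAGAG within 100 bp. Its levels were 18.5, 13.3 and 16.3, near the middle of the range over all domains, with the highest summit at 4.43 ± 0.706 (SD, n = 3). Its mean level of 16.0 ± 2.65 was below the 18.3 ± 2.08 of the third psq domain (SD, n = 3). That psq domain was higher in every replicate, with levels of 20.4, 16.2 and 18.3, and the other 3 psq domains were higher still.

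Most domains could be found again in single replicates, although these replicates were also the source of the optimal list and give no independent support. With the same chaining of the strong peaks of a replicate, 178 domains (74.5%) were met by a chain of 6 or more in replicate 1, 179 (74.9%) in replicate 2 and 186 (77.8%) in replicate 3. The replicates had 226, 228 and 249 such chains, of which 79.6, 80.3 and 73.5% overlapped a domain, and the remaining chains lay elsewhere. In all, 144 domains were formed in every replicate, 39 in a pair, 33 in 1 and 23 in none. Larger domains were formed more often. All replicates formed 23 of 78 domains with 6 summits, 68 of 103 with 7 to 9, and 53 of 58 with 10 or more. A domain of 6 summits can fail where 1 call is missing, while a larger one can lose several and still hold a chain of 6. Much of this order by size was thus set by the rule. Among those formed in no replicate were domains of 9 summits at foxo, a transcription factor of insulin signalling, with levels of 9.49, 9.34 and 7.58, and at ttk, a BTB zinc finger repressor, with levels of 5.13, 7.3 and 7.54.

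The order of domains by level was much the same in the replicates. Spearman's rho over the 239 domains was 0.953 between replicates 1 and 2, 0.943 between 1 and 3, and 0.944 between 2 and 3, for domains that share a peak list and a control alignment. The coefficient of variation of the level over replicates had a median of 10.8% and ran from 1.0% to 42.4%. Which summit was highest was less fixed: it was the same in every replicate in 113 domains (47.3%). The number of strong summits also varied in some domains: in tkv, a receptor for Dpp, a domain of 8 summits held 4, 9 and 6 strong ones in the replicates.

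Single peaks of domains also recurred between replicates. A strong peak within 200 bp was present in all 3 replicates for 1423 domain peaks (70.7%), against 4466 peaks outside domains (55.2%), where the share over all nuclear peaks was 58.3%. By chain size the share was 47.2% for isolated summits, 59.4% for chains of 2 to 5, 71.5% for 6 to 9 and 69.3% for 10 or more. Score moves with this. With the optimal list cut by score into 4 equal parts, the top one held 41.3% of domain peaks and 20.9% of the others, and the shares there were 98.3% in domains and 97.4% outside. Going up from the lowest part, the other shares were 15.4, 46.2 and 85.5% in domains and 11.0, 40.2 and 82.1% outside. In percentage points the share in all replicates therefore differed less within each part than over the whole list, and it was higher in domains in all 4 parts. The median relative score of domain peaks was 1.46 ± 0.0726, against 0.939 ± 0.00989 for the remaining peaks (SD, n = 3). A peak without a summit within 200 bp in the full list of a replicate has no relative score there and was left out of that median. In at least 1 replicate this held for 171 of 2014 domain peaks and 1282 of the 8091 others.

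Position relative to genes was not used by the rule and could be compared. Of the optimal summits, 579 in domains (28.7%) lay in promoters, meaning within 500 bp of a TSS, against 3879 outside domains (47.9%), where the share over all nuclear peaks was 44.1%. Among strong summits of the replicates, the promoter share was 29.3, 29.3 and 29.2% inside domain spans, against 47.8, 48.8 and 48.1% outside. The groups did not overlap, and the difference was −18.9 ± 0.546 percentage points (SD, n = 3; exact sign-flip permutation test over replicates, two-sided p = 0.25, the smallest that 3 replicates allow). Introns showed the opposite, with 52.2 ± 0.0635% inside and 34.1 ± 0.375% outside, a difference of 18.0 ± 0.419 percentage points (SD, n = 3; same exact test, p = 0.25). With chains limited to gaps of 1000 bp or less the promoter difference was smaller, at −9.25 ± 0.337 percentage points (SD, n = 3).

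The shift away from promoters followed chain size. The promoter share was 52.0% for isolated summits, 45.8% for chains of 2 to 5, 31.1% for 6 to 9 and 24.7% for 10 or more, while the intron share was 30.7%, 37.1%, 51.2% and 55.0% in the same order. It was also present in each of the 4 parts of the list by score. In the highest part 33.1% of domain peaks and 56.1% of the others were in promoters, and in the lowest part 20.3% and 39.2%. Spacing alone limits how many summits of a domain can lie near 1 TSS, and its part in the difference was not tested.

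Of the 239 domains, 40 had no promoter summit, 2 had all summits in promoters, and 128 had most of their summits in introns. The rule asks for several summits per domain, and 28.7% of domain summits lay in promoters. Most domains would then hold a promoter summit from their size alone, and any excess over this was not tested. Promoters of noncoding genes count here, and 74 domains held no TSS of a protein-coding gene. The highest summit of a domain lay in an intron in 120 domains (50.2%) and in a promoter in 80 (33.5%), against 28.1% in promoters among the other 1775 domain summits. Promoter summits had a median relative score of 1.69 ± 0.0886 in domains, against 1.06 ± 0.0277 in the remaining promoter peaks. Intronic summits had 1.33 ± 0.0409 in domains, against 0.866 ± 0.00564 in the remaining intronic peaks (SD, n = 3 each). The higher score of domain peaks was therefore seen in both classes.

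**Figure D3:**
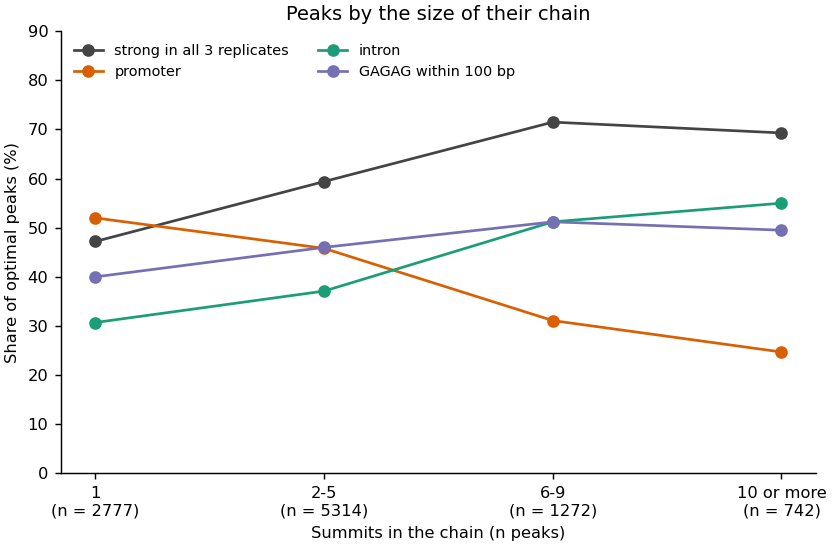
Share of optimal peaks in percent, by the number of summits in their chain (1, 2 to 5, 6 to 9, 10 or more), for 4 measures with 1 line each. The promoter line falls to 24.7% in the largest chains, the intron line reaches 55.0%, and the lines for GAGAG and for strong peaks in all replicates flatten between the last 2 sizes.

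GA repeats were more frequent at domain summits, by a modest amount. GAGAG, searched on both strands within 100 bp of the summit, was present at 1018 domain summits (50.5%), against 3555 of the remaining summits (43.9%), where the share over all nuclear summits was 45.3%. In strong summits of the replicates it was present in 52.2, 50.4 and 52.2% inside domain spans, against 42.2, 43.1 and 43.9% outside. The values did not overlap, with a difference of 8.56 ± 1.35 percentage points (SD, n = 3; exact sign-flip permutation test, two-sided p = 0.25, the smallest possible). Windows with 2 or more copies made up 29.1% in domains and 23% among the remaining peaks. Among optimal peaks in chains of 5, which are not domains, GAGAG was present at 50.6%, so its share was not particular to domains.

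That difference was smaller among peaks of similar score. In the 4 equal parts of the list, from lowest to highest score, GAGAG was present in 39.2, 44.6, 46.8 and 60.2% of domain peaks, against 36.3, 40.0, 46.8 and 55.2% of the others. So the shares were equal in the third part and higher in domains in the other 3. Within promoters the share was 51.6% in domains and 43.1% in the remaining peaks, within introns 50.4% and 46.4%, and in intergenic DNA 44.4% and 39.3%. The share was higher in domains in these 3 classes, with the smallest difference in introns; the few summits in exons were not examined by word.

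Within domains, the highest summit carried GAGAG more often than the others. It was present at 155 of the 239 highest summits (64.9%), against 863 of the 1775 others (48.6%). Highest summits are picked by score, and the share in domain peaks rose from 39.2% in the lowest part of the list to 60.2% in the highest. How much of the difference goes with score was not tested. In the median domain 50% of summits had the word, 2 domains had it at every summit and 2 at none. The rule asks for several summits per domain, and 45.3% of all nuclear summits had the word. Few domains would then have it at no summit whatever its spread, so its spread over domains was not tested. GAGAG did not mark every summit, as the stretches from vri and brat show.

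The DNA between the summits of a domain was not rich in GA repeats. More than 250 bp from any summit, it held 1.82 GAGAG per kb, against 7.17 per kb around domain summits, 1.49 in the 10 kb on each side of domains and 1.57 over the whole arms. Around isolated summits the density was 5.05 per kb. The GC content was 48.5% around domain summits, 38.4% between them and 42.7% in the flanks, so the DNA between summits was the poorest in GC of these. At 500 to 1000 bp from a summit the density was 3.21 per kb for domain summits, 2.44 for chains of 2 to 5 and 1.52 for isolated summits, at distances where neighbouring summits of the same chain also lie.

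**Figure D4:**
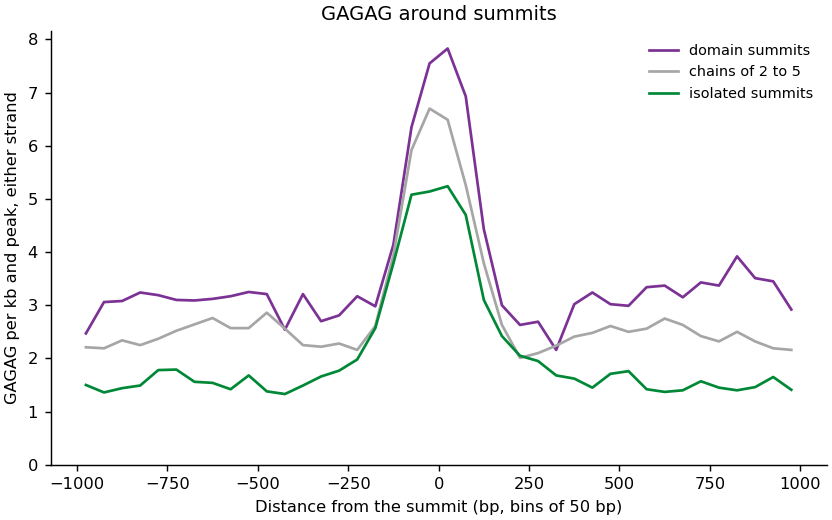
GAGAG per kb and peak on either strand, in bins of 50 bp up to 1000 bp from the summit, for domain summits, chains of 2 to 5 and isolated summits. All 3 lines peak at the summit; within 50 bp the density is 7.69 per kb for domain summits, 6.6 for chains of 2 to 5 and 5.19 for isolated summits.

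Other short words were searched in the same windows on both strands. TATCGATA, the core of the DNA replication-related element found in promoters of growth genes, was present in 0.768, 0.913 and 0.939% of strong summits inside domains, against 3.06, 3.24 and 3.25% outside, a difference of −2.31 ± 0.0193 percentage points with 2.89% over all nuclear summits. Among promoter peaks alone it was present in 14 of 579 in domains (2.42%), against 259 of 3879 in the remaining peaks (6.68%). CGATA, which every TATCGATA contains, was also lower, at 19.7, 19.3 and 21.1% inside and 27.5, 27 and 27.8% outside (26.3% over all). GGTCACAC, a core promoter word of housekeeping genes, had 1.39 ± 0.169% inside and 2.68 ± 0.0467% outside (2.65% over all). These 3 words were less frequent inside domains than outside in every replicate (SD, n = 3 throughout). Among optimal peaks in chains of 5, which are not domains, TATCGATA was at 0.299%, CGATA at 22.1% and GGTCACAC at 2.39%. The optimal peaks in domains had 0.844%, 20.3% and 1.44%. Low shares of TATCGATA and CGATA were thus not particular to domains.

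Repeat words went the other way or showed little. CACACACA was present in 19.2 ± 0.671% of strong summits inside domains, against 13.8 ± 0.583% outside (14.7% over all). GAGAGAGA, which contains GAGAG, had 10.8 ± 0.415% inside and 7.85 ± 0.156% outside (8.65% over all). A run of 8 A had 10.6 ± 0.284% inside and 10.5 ± 0.722% outside (10.4% over all), with replicates of differing sign (SD, n = 3 throughout). GCCAT, the core of the site of the Polycomb recruiter Pho, had 32.8 ± 0.233% inside and 32.2 ± 0.297% outside, and CAGGTAG, a Zelda site, 1.79 ± 0.103% and 1.55 ± 0.0489% (32.2% and 1.71% over all). AACCGGTT had 0.572 ± 0.0873% inside and 1.02 ± 0.085% outside (1.02% over all). Optimal peaks in chains of 5 were near those in domains for CACACACA (17.9% and 18.4%), GAGAGAGA (9.55% and 10.8%) and AACCGGTT (0.597% and 0.546%). Of the 10 words, the sign of the difference was the same in all replicates for each except the run of A; the exact sign-flip p of those 9 was 0.25, the smallest possible, and that of the run of A was 0.75.

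The genes that domains overlapped were longer than most. Domains overlapped 266 of 13945 protein-coding genes, which is 1.91%, and the TSS of 221 genes (1.58%). A longer gene is more likely to be met by a span placed anywhere, and this was not allowed for. The overlapping genes had a median length of 15478 bp, against 2166 bp for all genes, and among genes of 20 kb or more 104 of 1013 (10.3%) overlapped a domain. In 101 domains (42.3%) all summits lay within 1 protein-coding gene, and in 20 no summit lay in one. A TSS of a protein-coding gene was absent from 74 domains, 114 held the TSS of 1 gene and 51 those of 2 or more. Gene length moves with every list count given next, and its part in them was not tested. A gene is counted wherever a domain span overlaps it, even with few or no summits inside the gene.

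Several genes gave their name to more than 1 domain, and 22 named at least 2. After psq these included sbb, a corepressor, with 4 domains and 36 summits. E2f1 and brat followed with 30 summits each and Eip75B with 27, all with 3 domains. The 3 domains named for tara had 38 summits, but as given above 1 of them, with 6 summits, lay beside the gene. Brat is a translational repressor that limits growth. Tlk, tou, shn, Tet, kis, Mi-2 and skd were among those with 2 domains. Of these, kis and Mi-2 encode ATP-dependent chromatin remodellers, Tet a DNA and RNA dioxygenase, and skd a subunit of the kinase module of Mediator.

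Genes of the ecdysone response, which drives metamorphosis, overlapped domains in 7 of 26 cases (26.9%), against 1.91% of all protein-coding genes and 10.3% of those of 20 kb or more; the median length on this list was 22353 bp. The 7 were EcR, Eip74EF, Eip75B, Hr4, br, crol and vri. At EcR, the ecdysone receptor, 10 summits at 2R:6141731-6152700 had levels of 22.3, 18.8 and 17.1. The 3 domains of Eip75B had 9, 11 and 7 summits with mean levels of 15.6, 23.6 and 16.9. In br, a BTB zinc finger gene of the early response, 15 summits at X:1610221-1623481 had levels of 26.9, 23.8 and 24.1, and all 15 also lay within Mur2B, a gene that overlaps br there and names the domain. The crol domain, with 8 summits, had a mean level of 47.2, the highest on the list.

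Among regulators of chromatin, of 19 trithorax group genes, which keep target genes active, 6 overlapped a domain (31.6%), namely Trl, kis, osa, skd, tna and trx, with a median gene length of 8638 bp on the list. For comparison, 1.91% of all protein-coding genes and 10.3% of those of 20 kb or more overlapped a domain. The trx gene, which encodes a histone methyltransferase, had a domain of 6 summits with levels of 8.13, 7.58 and 6.44, far below the mean of 41.9 at osa and at the first kis domain. Of 23 Polycomb group genes, which keep target genes silent, 3 overlapped a domain (13.0%): the zinc finger gene jing and the Polyhomeotic genes ph-d and ph-p. The median length on that list was 7560 bp. The ph-d domain had levels of 20.2, 20.2 and 22.3 and the ph-p domain 21.7, 23 and 22.1, but these genes are near-identical copies and reads could be assigned to either, so both are uncertain. Among genes known as Polycomb targets 2 of 68 overlapped a domain (2.94%), bowl and ptc, a share near that of all genes, none of the 8 homeotic genes did, with a median length of 30563 bp, and none of the 14 insulator protein genes, with 3280 bp. Lists this short cannot tell 0 genes from the share of all genes. Of 16 BTB and Psq-type factors, 5 did: Trl, br, ken, psq and ttk (31.2%), on a list with a median length of 51914 bp.

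Among signalling pathways the EGF receptor pathway had the highest share, with 8 of 23 genes (34.8%) and a median gene length of 14110 bp on the list. These were the receptor Egfr, the ligand spi, its trafficking factor S, the kinase Raf, the phosphatase Mkp3, and the transcription factors aop, pnt and cic. Only 2 of the 23 had a TSS inside a domain, so most of these domains lay within gene bodies. Over all protein-coding genes 1.91% overlapped a domain, and over those of 20 kb or more 10.3%. The Raf domain had 13 summits and levels of 18.8, 16.8 and 18.5. The aop domain had 9 summits and levels of 23.8, 21.3 and 20.4, while the domain at the receptor had 6 summits and a mean level of 6.85. Mean levels over the 8 domains on this list ran from that value to 21.9 at aop.

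The other pathways had between 11.8% and 16.7% of their genes overlapping domains, against 1.91% of all protein-coding genes and 10.3% of those of 20 kb or more. Median gene lengths were 11763.5 bp on the Notch list, 7406 bp for Hedgehog and 7466 bp for Dpp. They were 4731 bp for insulin, 9259.5 bp for Wnt and 4277 bp for Hippo. Notch signalling had 3 of 18 genes (16.7%), namely the receptor N, its modifier fng and the coactivator mam, and N held 2 domains with mean levels of 23.1 and 10.3. Hedgehog signalling also had 3 of 18, the glypicans dally and dlp and the receptor ptc. Only 2 of the 11 summits of the dally domain lay within dally, and 1 of the 7 of the ptc domain within ptc. The Dpp pathway had 3 of 21 (14.3%) with shn, tkv and the inhibitor Dad. The insulin pathway had 3 of 23 (13.0%) with InR, foxo and the kinase Pdk1, whose 13 summits had levels of 24.9, 24.7 and 21.7. The Wnt pathway had 3 of 24 (12.5%) with the receptors fz2, fz3 and arr, and the arr domain was low, with levels of 5.21, 4.59 and 3.1. The Hippo pathway had 2 of 17 (11.8%), its kinase wts and its upstream regulator ex. Summits inside the gene were also few at fng (2 of 8), fz3 (1 of 6) and the first ex domain (1 of 8). At the second ex domain all 6 lay inside.

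Cell cycle and structural genes completed the lists. Their shares stand beside 1.91% of all protein-coding genes and 10.3% of those of 20 kb or more. Of 24 cell cycle genes 4 overlapped a domain (16.7%): CycE, E2f1, stg, which encodes the Cdc25 phosphatase, and trbl, its inhibitor. The stg domain of 8 summits had levels of 16.4, 21.4 and 20.2. Of 36 actin and adhesion genes 4 did (11.1%): the polarity kinase aPKC, the profilin gene chic, the fascin gene sn and the myosin heavy chain gene zip. Nuclear receptors had 3 of 20 (15.0%), EcR, Eip75B and Hr4, which are also on the ecdysone list. The median length was 3620.5 bp on the cell cycle list, 17988 bp on the actin and adhesion list and 22406 bp on the nuclear receptor list. Cytoplasmic ribosomal protein genes, short and active in every cell, had 3 of 86 (3.49%), RpL8, RpS14a and RpS14b. These lay in domains named for msn and Ubr3, RpS14a and RpS14b are near-identical copies and so uncertain, and the median length on that list was 1344.5 bp. No summit lay within RpL8 or RpS14b, and 1 lay within RpS14a.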

How the data were processed

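ChIP-seq peaks of Psq-eGFP were analysed in 3 biological replicates of whole larvae, 1 group per the labels. Peaks were called by the authors in each replicate and on pooled replicates, with 1 control alignment for all, and the optimal list was thresholded by irreproducible discovery rate, per the deposited file listing. Neither aligner nor peak caller is given in the sources used here. The authors deposited a score per peak and a summit offset in bp. The lists hold no read counts, so depth is unknown and no interval that needs it is given.

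Summits on dm6 were chained as the rule states. Replicate peaks matched within 200 bp. Classes and genes came from Ensembl release 115 without transposable elements, and sequence from NCBI RefSeq. The dm3 optimal list was used only for counts. Differences inside minus outside domains were formed per replicate and tested with an exact sign-flip permutation. Python 3.11.15, numpy 2.4.6 and pandas 2.3.3 were used, and the chaining and matching were tested on simulated data.

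Domains named were the 20 with the most summits, the 5 with the highest level, those at psq and Trl, and up to 3 per list for 18 gene lists. Each took the name of the protein-coding gene holding most of its summits, or of the nearest TSS where there was none. Other domains of list genes, such as those at crol and ttk, were named outside this rule after their values were seen. Of the listed symbols, 11 were matched through a synonym and 3 (Z4, d and pfk) were not matched. Domains, lists and tests were chosen with earlier results of these data known. Alternatives varied the gap, the number of summits, the list, the matching distance, the promoter width, the window, the replicates and the build.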

Additional observations from a re-analysis of the deposited data

How the results depend on the processing

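Values are given for domain count, domain peaks, mean number formed per replicate, share of domain peaks strong in all replicates, and median relative score, where settings moved them; the causes were not tested. With gaps of 1000 bp or less there were 73 domains, 523 peaks, 42.7 formed, 73.8% and 1.71. With gaps up to 3000 bp there were 322 domains, 2920 peaks, 250 formed, 68.1% and 1.32. With 5 or more summits there were 373 domains, 2684 peaks, 287 formed and a score of 1.37, and with 8 or more 118 domains, 1245 peaks, 86.3 formed and 1.57. Chaining only the optimal peaks above the median score, whose construction removes low scores, gave 78 domains, 550 peaks, 77.0 formed, 94.0% and 2.47. With 8000 strong peaks per replicate 140 domains were formed. Matching within 100 bp gave 58.8%, and within 500 bp 81.9% and 1.69. Leaving out each replicate in turn gave 80.7% to 81.4%, a share over 2 replicates instead of 3, and scores of 1.53 to 1.6.

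The dm3 optimal list gave 194 domains and 1565 peaks. Over the other gap limits, domain sizes, lists, promoter width, windows and left-out replicates tried, the promoter difference stayed between −20.0 and −9.25 percentage points and the GAGAG difference between 6.13 and 9.16. No result reversed. With 1 group, replicate numbers pair no samples across groups; domains were compared with the rest within each replicate. With no read counts, a summit missing from a replicate is only a missing call, and with 3 replicates no exact test could pass 0.05.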
